A study of Mus musculus with 2 samples.

Results

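The genes described are 7 that carry hormone, vitamin D and FGF23 signalling in the parathyroid gland: Kl, Fgfr1, Vdr, Rxra, Cyp27b1, Cyp24a1 and Pth1r. They were taken by symbol from the 32287 genes of the count matrices, whatever their level. The cells came from parathyroid glands that had grown from embryonic stem cells of the mouse. The hosts were Gcm2-/- on a BDF1B6 background, and Gcm2 encodes a transcription factor without which the gland does not form. They had been complemented with Pth-tdTomato mouse ESCs, and no gland of an unmanipulated mouse is among the samples. Replicate 1 pooled 3 mice of 9 to 12 weeks whose blood was 50 to 70% chimeric. Replicate 2 pooled 5 mice of 6 to 13 weeks whose blood was 60 to 70% chimeric. Males and females were mixed in each, and the mouse of a cell is not recorded.

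FGF23, a hormone made by bone, binds FGF receptors together with the co-receptor Klotho and lowers PTH secretion. The active form of vitamin D is made by the enzyme CYP27B1 and broken down by CYP24A1, and it represses Pth through the vitamin D receptor, which pairs on DNA with a retinoid X receptor such as RXRA. PTH acts on its target cells in bone and kidney through the receptor PTH1R, which signals through the stimulatory G protein encoded by Gnas. Kl encodes Klotho.

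The libraries held 1406 barcodes in replicate 1 and 3518 in replicate 2, of which 1240 and 3313 were kept, with 3 barcode sequences in common. Parathyroid cells were defined as barcodes with Pth at 5% or more of their UMIs, which gave 660 and 2237 cells with medians of 37729.5 and 30583 UMIs. The other cells had Pth under 1% of UMIs (566 and 1054 cells, medians of 15401.5 and 14662.5) and were clustered without the genes described here. Their names rest on marker genes. 5 of these classes held at least 20 cells in each library: T cell-like, dendritic-like, endothelial-like, fibroblast-like and macrophage-like. Levels are given as CPM: the UMIs of a gene were summed over the cells of a class in a library and scaled by all UMIs of that sum. The label was checked on 6 markers other than Pth. Gcm2 was at 157 and 159 CPM in parathyroid cells and 2.84 and 2.85 CPM in the mean of the 5 other classes, while Chga, Gata3, Epcam, Pax9 and Eya1 were also higher in parathyroid cells in both libraries. Since the deleted stretch of Gcm2 is not named, its level does not check the host genotype. The reporter tdTomato was at 10092 and 10992 CPM in parathyroid cells and 92.6 and 110.4 CPM averaged over the other 5. Cells outside the parathyroid class may descend from the host or from the stem cells, and origin and class were not separated here.

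Among the 7 genes, Kl and Vdr were high in parathyroid cells of both pools, Fgfr1 and Pth1r were highest in fibroblast-like cells among the 6 classes, and Cyp24a1 had no UMI. The sequences just before the RefSeq start sites of Kl and Vdr are shown because these are the genes of the set that were called higher in parathyroid cells against each of the other classes. They are credited to RefSeq (GRCm38.p6), run 5′ to 3′ on the strand of the gene, and have matches to the GC box GGGCGG, read on either strand, in capitals. The first is chr5:150952357-150952606 on the plus strand, and the second, cut to the bases that no annotated exon covers, is chr15:97908311-97908546 on the minus strand.
Kl: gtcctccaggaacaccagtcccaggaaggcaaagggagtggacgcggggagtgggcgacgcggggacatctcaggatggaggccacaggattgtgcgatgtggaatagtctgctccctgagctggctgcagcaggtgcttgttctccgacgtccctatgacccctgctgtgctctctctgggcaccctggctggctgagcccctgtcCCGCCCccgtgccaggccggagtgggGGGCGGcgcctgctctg
Vdr: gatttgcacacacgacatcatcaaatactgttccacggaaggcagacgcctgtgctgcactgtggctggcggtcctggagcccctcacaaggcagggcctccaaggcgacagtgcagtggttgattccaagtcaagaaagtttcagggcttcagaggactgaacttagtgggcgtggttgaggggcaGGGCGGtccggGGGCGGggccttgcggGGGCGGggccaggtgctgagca

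The Kl sequence has 66.8% G and C, 13 CpG and 2 GC boxes. That of Vdr, over its full window of 250 bases, has 61.2% G and C and 11 CpG, and 3 GC boxes. Over 32851 windows of the same length the medians were 52.4% and 6, and 32.7% held a GC box. On both strands neither sequence held the GCM box ATGCGGGT, which stood in 0.207% of all windows. Neither held AGGTCA (14.0% of windows) or GGTTCA (8.85%), units of the repeats that vitamin D receptors bind, nor the GATA site AGATAA (9.99%). Other forms of these repeat units were not searched, so the absence of such units is not shown. The start site of Vdr lies within the annotated span of the gene, which has other starts, and counts from 3′ ends do not show which start was used. The table held sequences for 5 of the 7 genes. Fgfr1 and Cyp24a1 are named only.

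**Figure D1:**
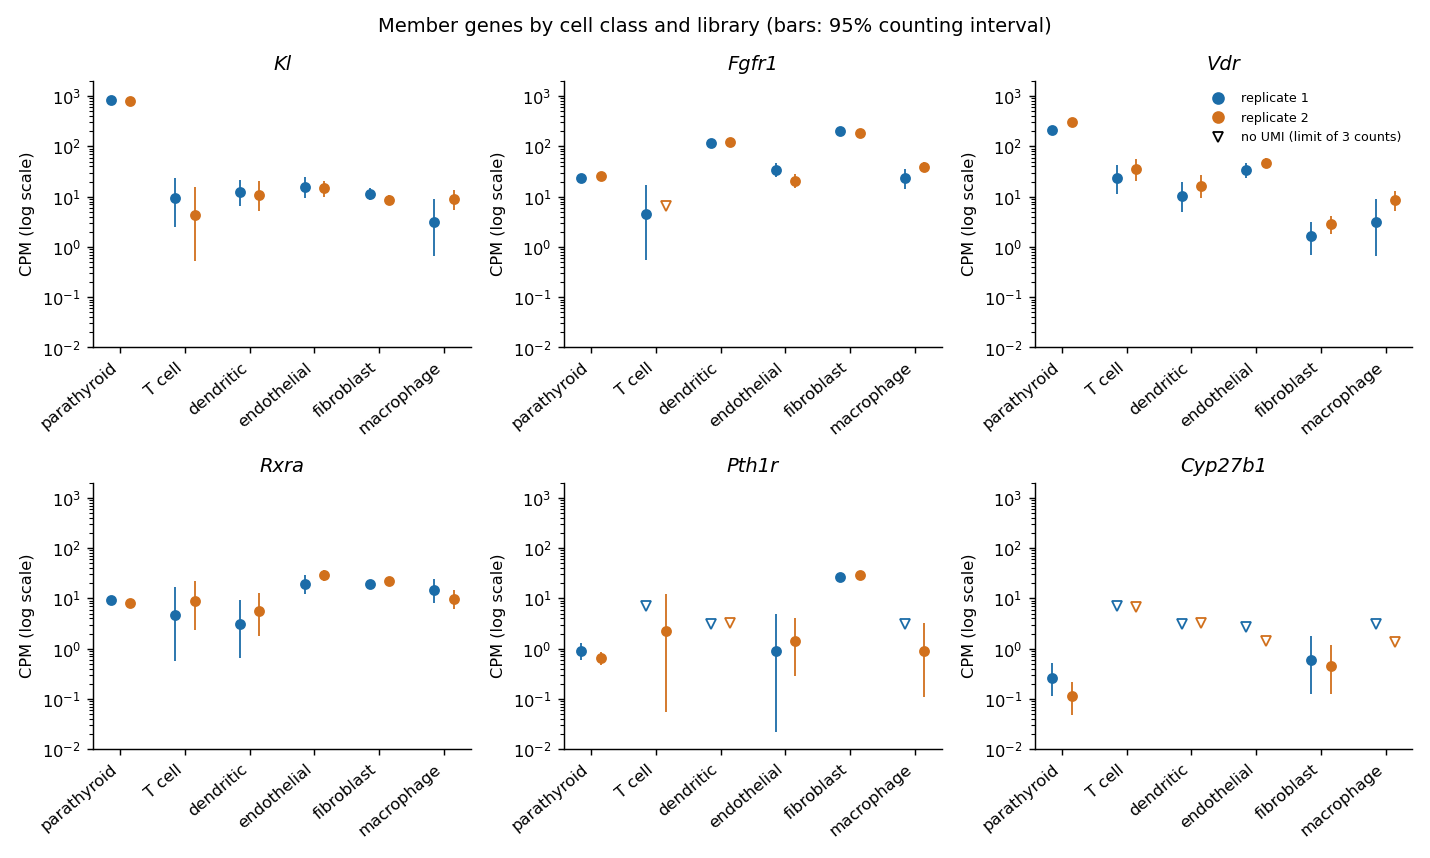
Level of 6 of the genes in each class (CPM on a log axis, 1 point per library, parathyroid cells at the left). Bars are exact 95% counting intervals, and open triangles mark sums with no UMI at the level that 3 counts would give. Kl and Vdr are highest in parathyroid cells in both libraries, and Fgfr1 and Pth1r in fibroblast-like cells.

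Kl (chromosome 5, 150952607 to 150993817, GRCm38) was the gene of this set with the sharpest difference between parathyroid cells and the rest. Parathyroid cells had 856 CPM in replicate 1 (25934 UMIs, 95% interval 846 to 867) and 799 CPM in replicate 2 (57092 UMIs, 792 to 805). Endothelial-like cells had 15.9 and 14.6 CPM, dendritic-like cells 11.8 ± 1.08 (SD, n = 2), fibroblast-like cells 11.5 and 8.74, T cell-like cells 9.25 and 4.40, and macrophage-like cells 3.14 and 8.94. The lowest parathyroid value thus lay far above the highest of any other class, and the counting intervals of neighbours among the other classes overlapped. In the edgeR quasi-likelihood test, parathyroid cells exceeded the mean of the 5 other classes by 6.54 on the log2 scale (SE 0.16, adjusted p = 2.20e-11), in both libraries. Of all Kl UMIs, 93.7% in replicate 1 and 97.8% in replicate 2 lay in parathyroid cells.

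In droplet data free RNA can give UMIs in cells that do not express a gene, and RNA from 1 source keeps its genes in 1 ratio within a library. No profile of empty droplets was used here, and the part of free RNA in these levels was not tested. Kl UMIs per Pth UMI, relative to the same ratio in parathyroid cells, were 1.48 and 1.46 in endothelial-like, 1.51 and 1.67 in dendritic-like, 0.897 and 0.453 in T cell-like and 0.311 and 0.964 in macrophage-like cells. Their 95% intervals held 1 in these classes except in macrophage-like cells of replicate 1 (0.0641 to 0.909). In fibroblast-like cells the ratio was 1.62 (1.23 to 2.10) in replicate 1 and 1.35 (1.07 to 1.69) in replicate 2, above that of parathyroid cells in both. For Casr the same ratio ranged from 0.446 to 11.02 over these classes. Thinned to 10000 UMIs per cell, a Kl UMI was found in 99.2% and 99.8% of parathyroid cells and in 12.2% and 8.45% of fibroblast-like cells, whose median depths were 21691 and 19701.5 UMIs.

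**Figure D2:**
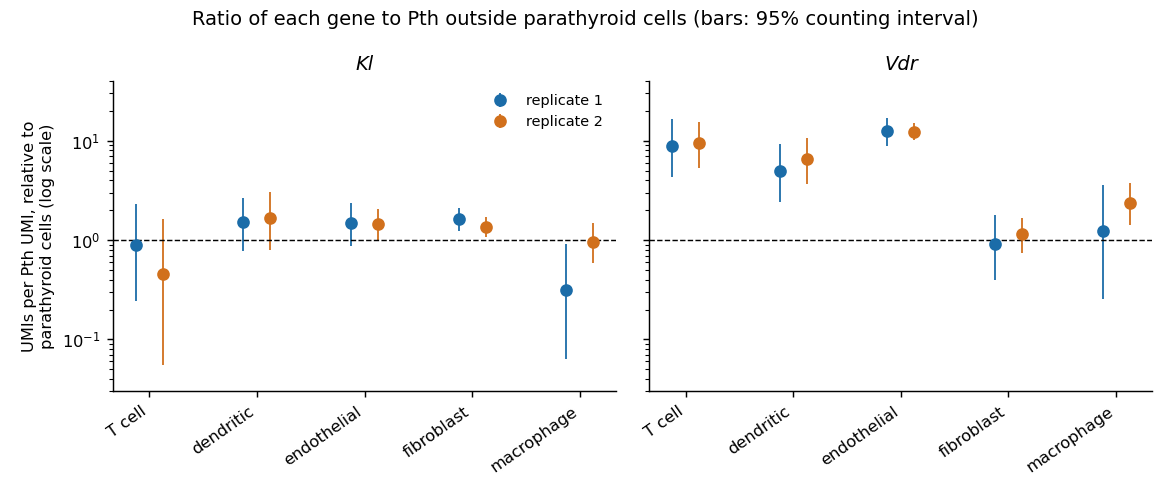
UMIs of Kl and Vdr per Pth UMI in each other class, divided by the same ratio in the parathyroid cells of that library (log axis, 1 point per library, bars are 95% counting intervals). The dashed line at 1 is the ratio of the parathyroid cells. Kl lies between 0.311 and 1.67, while Vdr reaches 12.5 in endothelial-like cells and lies near the line in fibroblast-like cells.

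Fgfr1 (chromosome 8, 25513654 to 25575718) encodes the FGF receptor to which the Klotho and FGF23 pair is best known to bind. Its level in parathyroid cells was steady, at 23.9 CPM in replicate 1 (725 UMIs) and 25.8 CPM in replicate 2 (1841 UMIs). Fibroblast-like cells had 203 and 183 CPM, dendritic-like cells 118 and 120.1, endothelial-like cells 34.4 and 20.7, macrophage-like cells 23.0 and 39.4, and T cell-like cells 4.63 and 0. Parathyroid cells lay below the fibroblast-like and dendritic-like classes in both libraries, among the endothelial-like and macrophage-like values, and above the T cell-like class. By the edgeR test they were lower by 2.87 (log2, SE 0.25, adjusted p = 6.78e-07) against fibroblast-like cells and by 2.27 (SE 0.26, adjusted p = 1.29e-05) against dendritic-like cells. They were not called different from endothelial-like cells (log2 fold change 0.17, SE 0.29, adjusted p = 0.658, edgeR) or macrophage-like cells (-0.49, SE 0.28, adjusted p = 0.153). Against T cell-like cells, which had 2 and 0 Fgfr1 UMIs, the call was higher (adjusted p = 0.00126, edgeR), and its size is not given because it hangs on these counts. The fibroblast markers were summed beside this: all 8 together reached 64.8 and 182 CPM in parathyroid cells, with none at 0, and 5069 and 5898 CPM in the mean of the other classes. Their part in the Fgfr1 level of parathyroid cells was not tested. An antisense gene, Gm16159, overlaps Fgfr1 and its reads cannot be told apart from those of Fgfr1 here, since the strand setting of the counting is not stated.

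Within the other classes, Fgfr1 was uneven. Among macrophage-like cells the cluster led by Retnla and Pf4, genes of resident macrophages, had 118 CPM (14 UMIs) and 106 CPM (74 UMIs). This cluster held 9 and 43 cells, with or without an Fgfr1 UMI. In the whole macrophage-like class 7 and 30 cells had an Fgfr1 UMI, with up to 6 and 14 UMIs in 1 cell. The cluster led by Il1a and Mmp12 had 14.4 and 10.3 CPM and that led by Lyz1 and Ccl12 had 0 and 6.33 CPM. Among dendritic-like cells, the cluster led by Cd209a and Igkc had 148 and 131 CPM, against 9.67 and 30.6 CPM (2 and 3 UMIs) in a small one led by Ccr7. The 6 fibroblast-like clusters ranged from 141 to 302 CPM. These clusters were made from the same cells, so the values are a description with no test. Igkc is a B cell gene, and at a finer clustering 14 and 29 cells were named B cell-like, while the dendritic-like class held 41 and 30 cells.

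**Figure D3:**
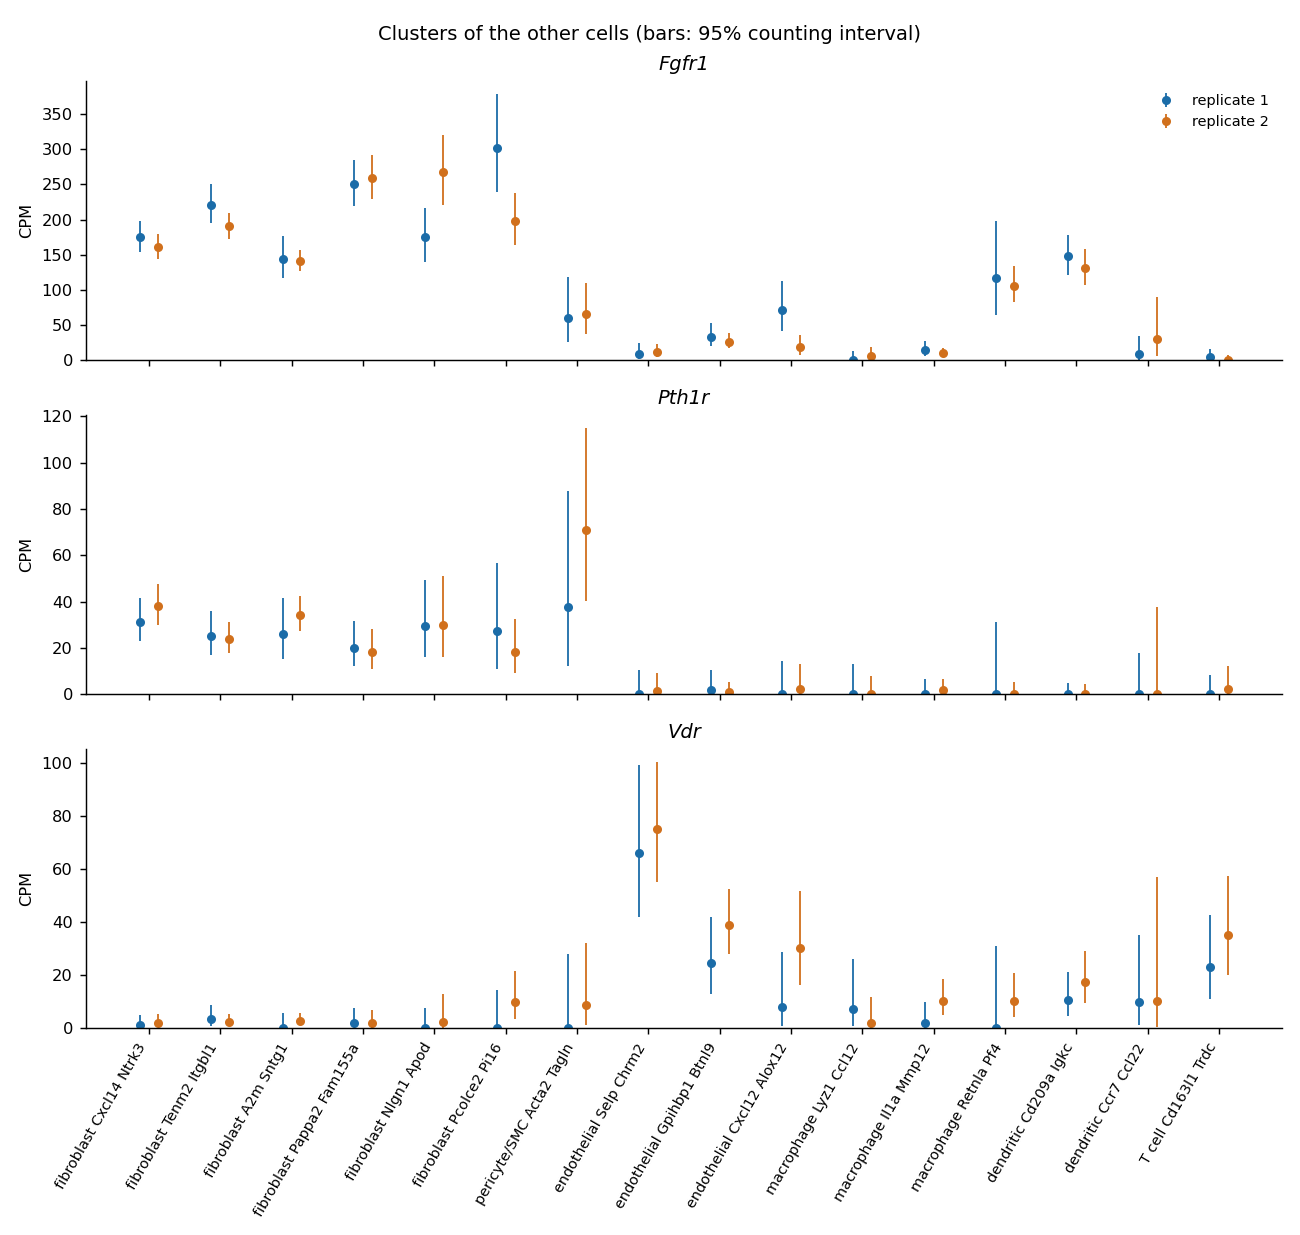
Fgfr1, Pth1r and Vdr in each cluster of the other cells (CPM, 1 point per library, bars are 95% counting intervals, clusters labelled by class and 2 leading genes). Fgfr1 spans 141 to 302 CPM over the fibroblast-like clusters and is at most 14.4 CPM in 2 of the 3 macrophage-like clusters. Pth1r is seen in fibroblast-like and pericyte or smooth muscle-like cells, and Vdr is highest, among the clusters drawn, in the Selp and Chrm2 endothelial-like cluster.

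Vdr (chromosome 15, 97854425 to 97910630, minus strand) encodes the vitamin D receptor. Parathyroid cells had 214 CPM in replicate 1 (6491 UMIs, 95% interval 209 to 220) and 307 CPM in replicate 2 (21948 UMIs, 303 to 311). Endothelial-like cells had 33.5 and 47.6 CPM, T cell-like cells 23.1 and 35.2, dendritic-like cells 10.5 and 16.5, macrophage-like cells 3.14 and 8.50, and fibroblast-like cells 1.62 and 2.84. The parathyroid values did not overlap with those of any other class, and in each of the 6 classes replicate 2 was the higher library. Parathyroid cells exceeded the mean of the other classes by 4.60 (log2, SE 0.13, adjusted p = 4.75e-11, edgeR). Against single classes the difference ran from 2.95 for endothelial-like cells (SE 0.19, adjusted p = 5.82e-08) to 6.93 for fibroblast-like cells (SE 0.23, adjusted p = 1.21e-09).

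Vdr UMIs per Pth UMI reached higher values outside parathyroid cells than those of Kl, whose highest ratio was 1.67. The Vdr ratio relative to parathyroid cells was 12.5 (95% interval 8.84 to 17.1) and 12.4 (10.1 to 15.1) in endothelial-like cells, 8.96 (4.30 to 16.5) and 9.42 (5.39 to 15.3) in T cell-like cells and 5.02 (2.41 to 9.23) and 6.51 (3.64 to 10.7) in dendritic-like cells. In fibroblast-like cells it was 0.910 (0.393 to 1.79) and 1.14 (0.739 to 1.69), with intervals that held 1. In macrophage-like cells it was 1.24 (0.256 to 3.63) in replicate 1, which holds 1, and 2.38 (1.43 to 3.72) in replicate 2, which does not. Endothelial-like cells differed among clusters: the cluster led by Selp, an adhesion gene of venous endothelium, and Chrm2 had 66.0 and 75.1 CPM, the cluster led by Gpihbp1, a capillary gene, 24.4 and 38.9, and the cluster led by Cxcl12 7.89 and 30.3. The T cell-like class was led by Cd163l1 and Trdc, genes of gamma-delta T cells.

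Rxra (chromosome 2, 27676440 to 27762957), the DNA-binding partner of the vitamin D receptor, was at 9.34 and 7.93 CPM in parathyroid cells (283 and 567 UMIs). Endothelial-like cells had 19.4 and 28.7 CPM, fibroblast-like cells 19.0 and 21.8, macrophage-like cells 14.7 and 9.84, T cell-like cells 4.63 and 8.80, and dendritic-like cells 3.14 and 5.51. Parathyroid cells were below the endothelial-like and fibroblast-like classes in both libraries and overlapped with the T cell-like values. They were lower by 1.26 (log2, SE 0.27, adjusted p = 0.00180, edgeR) against endothelial-like and by 1.16 (SE 0.23, adjusted p = 0.000903) against fibroblast-like cells. The differences from dendritic-like, macrophage-like and T cell-like cells were not called (adjusted p = 0.109, 0.214 and 0.335, edgeR). Of its relatives, Rxrb had 25.9 and 24.7 CPM in parathyroid cells and 23.0 and 24.1 CPM in the mean of the other classes, with no call (log2 fold change 0.25, SE 0.16, adjusted p = 0.212, edgeR), and Rxrg had no UMI in parathyroid cells.

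The enzymes were almost undetected. Cyp27b1 (chromosome 10, 127048250 to 127053006), which makes active vitamin D, gave 8 UMIs in each library's parathyroid cells, or 0.264 and 0.112 CPM, and 26 UMIs in 25 barcodes in all. Fibroblast-like cells had 3 and 4 UMIs, and the 4 other classes had 0. Parathyroid and fibroblast-like counting intervals overlapped in each library. Cyp24a1 (chromosome 2, 170482708 to 170497145, minus strand), which breaks active vitamin D down and is a strong target of the vitamin D receptor, had 0 UMIs in all 4924 barcodes. Taken as 3 counts of the total, that allows a UMI in up to 0.213% of the barcodes of replicate 1 and 0.0853% of those of replicate 2. Neither gene passed the filter on low counts, so neither was tested, and 5 of the 7 genes were. Such limits cover counting error only and concern barcodes with a UMI, not cells that express the gene.

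Pth1r (chromosome 9, 110722085 to 110747145, minus strand), the receptor for PTH, was seen mainly outside the cells that make PTH. Parathyroid cells had 0.891 and 0.657 CPM (27 and 47 UMIs). Fibroblast-like cells had 26.7 CPM (132 UMIs) and 29.2 CPM (257 UMIs). The other 4 classes had 0 to 3 UMIs in each library, at most 2.20 CPM. Parathyroid cells were lower than fibroblast-like cells by 5.12 (log2, SE 0.34, adjusted p = 1.58e-07, edgeR), and the libraries of the 2 classes did not overlap. Pericyte or smooth muscle-like cells, too few for the test (10 and 22 cells), had 37.6 CPM (5 UMIs) and 70.8 CPM (16 UMIs). Over the 6 fibroblast-like clusters Pth1r ranged from 18.1 to 37.9 CPM, so that no single cluster carried it. Thinned to 10000 UMIs, a Pth1r UMI was found in 0.939% and 0.597% of parathyroid cells and in 23.0% and 25.4% of fibroblast-like cells. Myl3 overlaps Pth1r on the other strand.

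**Figure D4:**
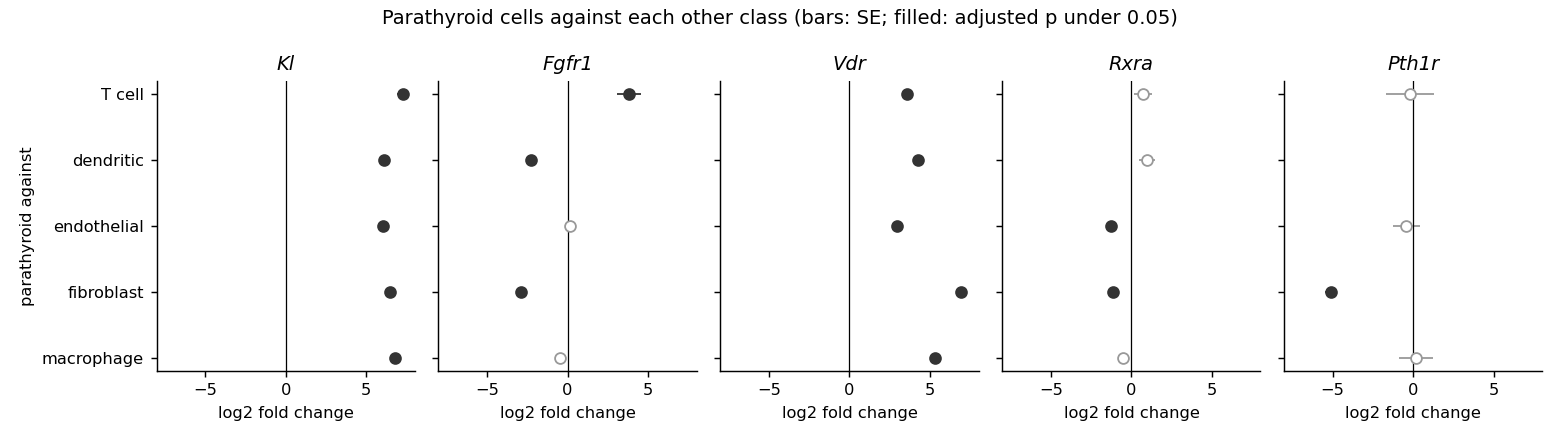
Log2 fold change of parathyroid cells against each other class for the 5 genes tested (edgeR, bars are SE, filled points have an adjusted p under 0.05). Kl and Vdr lie to the right of 0 in each panel row, Fgfr1 and Rxra lie on both sides, and Pth1r lies left of 0 at -5.12 against fibroblast-like cells. The Pth1r contrast with dendritic-like cells, which had no UMI, is not drawn.

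Against the mean of the 5 other classes 2 of the 5 tested genes, Kl and Vdr, were called higher and 0 lower (edgeR, adjusted p under 0.05). Of the 13305 genes tested 56.8% were called, 36.8% higher and 20.0% lower. Fgfr1 (-0.33, SE 0.32, adjusted p = 0.441), Rxra (-0.24, SE 0.24, adjusted p = 0.445) and Pth1r (0.08, SE 0.37, adjusted p = 0.941) were not called by edgeR. The Pth1r value is poorly defined, since dendritic-like cells had no UMI. All genes together had a median log2 fold change of 0.19. Against fibroblast-like cells 2 of the genes were called higher and 3 lower (29.8% and 29.6% of all genes, 59.3% together), and against endothelial-like cells 2 and 1 (28.7% and 25.4%, together 54.1%). Against dendritic-like cells the counts were 2 and 1 (32.1% and 25.1%, together 57.2%), against macrophage-like cells 2 and 0 (30.4% and 29.0%, together 59.4%), and against T cell-like cells 3 and 0 (28.3% and 17.6%, together 45.9%). The p-values measure how class differences vary between the 2 pools. With all named other cells summed to 1 class, which fibroblast-like cells dominate, Fgfr1 (-2.10, adjusted p = 0.000181), Rxra (-0.81, adjusted p = 0.0142) and Pth1r (-4.23, adjusted p = 0.000191) were called lower by edgeR. That class also took in the named classes with too few cells for the main fit, among them a small parathyroid-like cluster. It left out cells without a name. Its fit has fewer sums than the main fit, and so fewer residual degrees of freedom.

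Within parathyroid cells, detection was compared after thinning each cell to 10000 UMIs, which kept 639 and 2177 cells. Vdr was found in 85.9% and 93.3% of them, Fgfr1 in 19.9% and 21.3%, Rxra in 8.61% and 7.49% and Cyp27b1 in 0.156% and 0.230%. Without thinning, a UMI was found in 99.1% and 99.2% for Kl, 97.9% and 98.4% for Vdr, 54.4% and 51.7% for Fgfr1 and 32.9% and 22.1% for Rxra. Kl was thus found in nearly every cell, while the share for Fgfr1 moved with depth. Kl had a median of 8 UMIs per 10000 in both libraries, with 90% of cells of replicate 1 between 3 and 16 and of replicate 2 between 3 and 14. Vdr had medians of 2 and 3 UMIs. The variance over the mean, which is 1 for counting noise alone, was 1.89 and 1.61 for Kl, 1.27 and 1.29 for Vdr, 0.979 and 1.05 for Fgfr1, and 2.31 and 1.94 for Casr, the calcium-sensing receptor. The values for Fgfr1 thus lay near 1, and those of Kl and Vdr above it. For the same variation between cells this ratio rises with the mean count. The mean was 0.221 and 0.245 UMIs for Fgfr1, against 8.36 and 8.09 for Kl and 2.20 and 3.10 for Vdr. The ratio therefore cannot show whether Fgfr1 varied less between cells than Kl or Vdr.

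**Figure D5:**
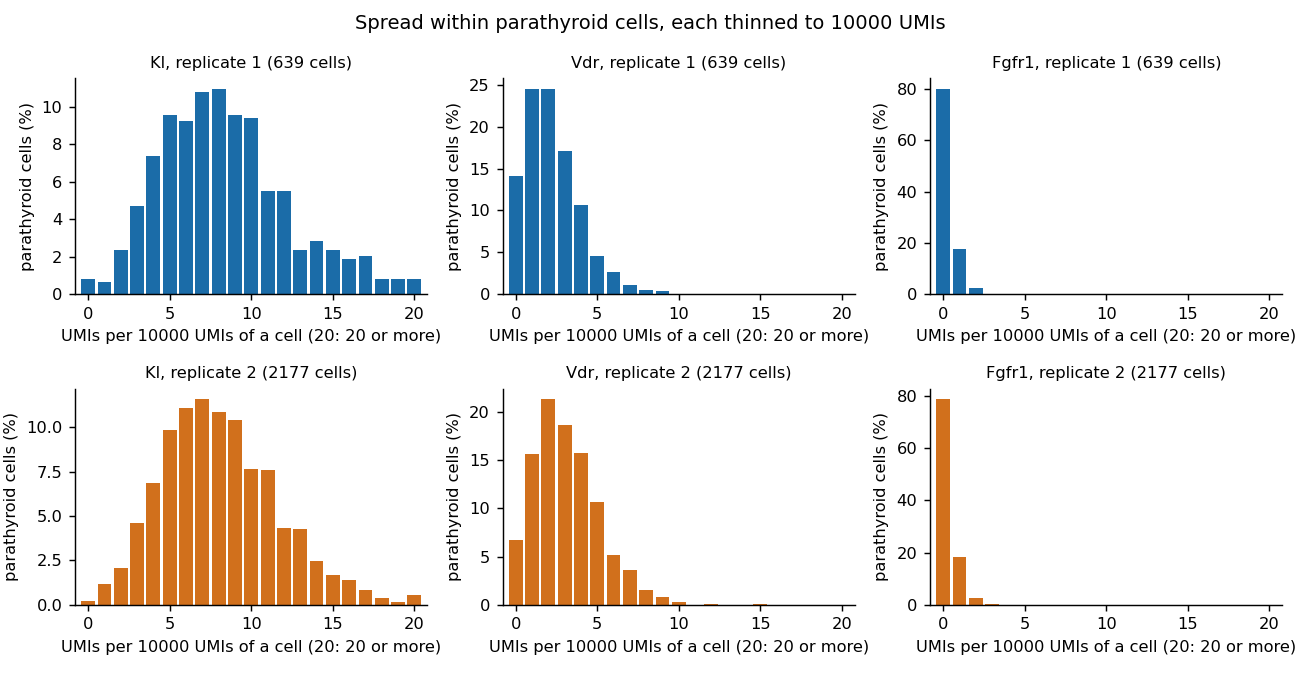
Share of parathyroid cells (%) by their number of Kl, Vdr and Fgfr1 UMIs after thinning to 10000 UMIs per cell (639 cells of replicate 1 in the upper row, 2177 of replicate 2 in the lower row; the last bar holds 20 or more). Each gene has a single hump, Kl around 8 UMIs and Vdr around 2 to 3, with Vdr shifted to the right in replicate 2.

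Co-detection in the same cell lay close to the product of the shares of the single genes. Kl was found in 99.2% and 99.8% of the thinned cells, so its overlap with any gene was nearly fixed by that gene's share. The pairs with Kl therefore cannot show whether detection of Kl and of the other gene is linked. Kl and Vdr were both found in 85.3% and 93.1% of the thinned parathyroid cells, where the product of their shares is 85.2% and 93.1%. Kl was found together with Fgfr1 in 19.7% and 21.3% (products 19.7% and 21.2%), and Vdr together with Rxra in 7.67% and 6.94% (products 7.39% and 6.99%). Any of Fgfr1 to Fgfr4 stood beside Kl in 74.96% and 72.8% of cells, and any retinoid X receptor beside Vdr in 23.3% and 25.4%. Kl, Vdr and Casr were all found in 76.4% and 84.1%. Across cells the Spearman correlation of Kl and Vdr was 0.11 and 0.03, and that of Kl and Casr 0.26 and 0.11 (639 and 2177 cells that share a library and depth), which are weak in sparse counts.

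The genes were also followed along the share of Pth in a cell's UMIs and scaled as CPM over UMIs other than Pth. In cells with 5 to 10%, 10 to 20% and over 20% Pth, Kl was at 1070.4, 1001 and 760 in replicate 1 (34, 601 and 25 cells) and 933, 955 and 861 in replicate 2 (55, 2010 and 172 cells). It was lowest in the cells richest in Pth in both libraries. Vdr was at 237, 250.5 and 246 in replicate 1 and 386, 369 and 293 in replicate 2, so that its lower value at over 20% appeared in replicate 2 and not in replicate 1. Casr was at 544, 406 and 226 in replicate 1 and 402, 375 and 344 in replicate 2. The Casr values decreased over the 3 ranges in both libraries. In replicate 2 the counting intervals of Casr at 5 to 10% (369 to 438) and 10 to 20% (370 to 380) overlapped. The Pth share defined the cells, the bins at either end hold few cells, and no test was made.

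Between the pools, Vdr differed most among these genes where counts were large. Parathyroid cells of replicate 2 had 1.43 times the Vdr CPM of replicate 1, and 2.55% of the 2663 genes with at least 50 CPM in parathyroid cells were at least as far apart. The ratio was 0.933 for Kl, 1.08 for Fgfr1, 0.849 for Rxra, 0.900 for Casr and 1.01 for Gcm2. The pools differ in mice, ages and preparation, which cannot be told apart.

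Genes of the same pathways were read from 9 lists, of which 60 of 73 genes were tested, and 22 were called higher, 17 lower and 21 not called in parathyroid cells against the mean of the other classes (edgeR). That is 36.7% higher and 28.3% lower, beside 36.8% and 20.0% of all genes tested, the shares beside which the counts of each list stand. The median log2 fold change of the 60 was 0.16, beside 0.19 for all genes tested. None of the 3 genes of the FGF23 and Klotho family list or of the 3 PTH ligands and other PTH receptors passed the count filter. Among them Klb, the co-receptor of other endocrine FGFs, had 14 UMIs in all barcodes, and Pth2r 18.

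Among the other FGF receptors, 2 of 3 tested were called higher and 0 lower. Fgfr2 had 133 and 119 CPM in parathyroid cells and 106 and 72.6 CPM in the mean of the other classes (log2 fold change 0.78, SE 0.14, adjusted p = 0.000408, edgeR). It was no marker of parathyroid cells, since endothelial-like cells had 205 and 135 CPM. Fgfrl1, a receptor without a kinase domain, had 11.5 and 11.7 CPM in parathyroid cells and 4.80 and 4.98 CPM in the others (2.10, SE 0.30, adjusted p = 5.81e-05). Fgfr3 was tested and not called (adjusted p = 1, edgeR). Its fold change is poorly defined, because T cell-like and dendritic-like cells had no UMI, and is not given. Fgfr4 had 6 UMIs in all barcodes. Downstream of the receptors, 7 of 15 tested genes were called higher and 3 lower. Frs2, the docking protein of FGF receptors, was higher by 1.29 (log2, SE 0.15, adjusted p = 8.37e-06, edgeR). The transcription factor gene Etv4 was higher by 4.98 (SE 0.58, adjusted p = 1.76e-05, edgeR), at 7.69 and 10.6 CPM in parathyroid cells and 0.867 and 0.519 CPM in the others. The size for Etv4 hangs on few counts: the other classes had 11 UMIs in each library, of which fibroblast-like cells held 10 and 9. Spry4 had 3.07 and 4.08 CPM in parathyroid cells and 60.6 and 55.9 CPM in the others. For Etv5 the values were 20.1 and 22.1 CPM in parathyroid cells and 17.0 and 16.2 CPM in the others. The adaptor Grb2 was lower by 1.23 (SE 0.17, adjusted p = 4.14e-05). Of the proteases that release Klotho from the membrane, Adam17 fell by 2.03 (SE 0.20, adjusted p = 2.60e-06) and Adam10 by 1.18 (SE 0.16, adjusted p = 3.40e-05), while Bace1 rose by 1.86 (SE 0.29, adjusted p = 0.000119). These differences are from the mean of the classes: Bace1 had 19.7 and 19.1 CPM in parathyroid cells, below the 40.6 and 37.2 CPM of fibroblast-like cells. For Adam10 the values were 36.0 and 31.2 CPM in parathyroid cells and 41.6 and 31.7 CPM in fibroblast-like cells, and for Grb2 59.5 and 55.03 CPM in parathyroid cells and 51.3 and 52.7 CPM in fibroblast-like cells.

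In vitamin D transport and metabolism, 2 of 8 tested genes were called higher and 2 lower. Lrp2, which encodes megalin, the receptor that takes up vitamin D with its binding protein in the kidney, had 116 and 127 CPM in parathyroid cells and 1.48 ± 0.325 CPM (SD, n = 2) averaged over the other classes. The libraries of parathyroid and other cells did not overlap, and the difference was 6.61 (log2, SE 0.24, adjusted p = 4.30e-10, edgeR). A Lrp2 UMI was found in 88.9% of parathyroid cells in each library and in 1.73% and 1.79% of fibroblast-like cells without thinning. Cubn and Dab2, partners of megalin, were tested and not called (edgeR), with fold changes that are poorly defined because T cell-like cells had no UMI of either. The lack of a call thus does not show like levels. Dab2 had 0.528 and 1.85 CPM in parathyroid cells, 294 and 526 CPM in macrophage-like and 121 and 71.2 CPM in fibroblast-like cells. Cubn had 0.528 and 0.574 CPM in parathyroid cells, 34.5 and 36.2 CPM in macrophage-like and 2.42 and 1.59 CPM in fibroblast-like cells. Fdx1, an electron carrier for the mitochondrial vitamin D hydroxylases, was higher by 1.14 (SE 0.17, adjusted p = 0.000103), and Fdxr, which feeds it, fell by 0.93 (SE 0.29, adjusted p = 0.0161). Cyp27a1, a hydroxylase upstream of Cyp27b1, had 0.495 and 0.615 CPM in parathyroid cells and 73.7 and 70.6 CPM in fibroblast-like cells.

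Of the 11 tested partners and cofactors of the vitamin D receptor, 1 was called higher and 4 lower. The corepressor Ncor1 was higher by 0.72 (SE 0.12, adjusted p = 0.000206, edgeR). The coactivator Ncoa3 fell by 1.59 (SE 0.16, adjusted p = 3.70e-06). Pdia3, listed for a proposed role as a membrane-associated binding protein for vitamin D, was not called (0.04, SE 0.13, adjusted p = 0.882, edgeR).

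Downstream of PTH receptors 7 of 16 tested genes were called higher and 5 lower. Gnas had 11628 and 12454 CPM in parathyroid cells and 935 and 1037 CPM in the mean of the other classes, a difference of 3.89 (log2, SE 0.07, adjusted p = 2.31e-12, edgeR). The scaffold Slc9a3r1 was higher by 2.32 (SE 0.12, adjusted p = 1.36e-08, edgeR) than the mean of the classes, but not than each class. It had 83.6 and 83.2 CPM in parathyroid cells, 74.0 and 81.4 CPM in T cell-like cells and 0.808 and 0.908 CPM in fibroblast-like cells. The arrestin Arrb1 fell by 4.69 (SE 0.24, adjusted p = 7.70e-09), and the phosphodiesterase Pde4d was not called (0.77, SE 0.31, adjusted p = 0.0524, edgeR). Among calcium-sensing and phosphate genes, 2 of 4 tested were called higher and 1 lower. Casr had 349 and 314 CPM in parathyroid cells and 7.09 and 8.67 CPM in the others (6.24, SE 0.17, adjusted p = 4.97e-11). The phosphate exporter Xpr1 was higher by 0.68 (SE 0.14, adjusted p = 0.00101), the phosphate importer Slc20a1 fell by 2.27 (SE 0.23, adjusted p = 3.62e-06), and Slc20a2 was not called (0.39, SE 0.18, adjusted p = 0.0854). Pth2, Slc34a2 and Slc34a3 had 0 UMIs in all barcodes.

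The genes whose log2(CPM + 1) followed Kl most closely over the 12 class sums, among 9465 genes, were Kif13b (Pearson r = 0.99), Lrrc7 (0.98) and Nsun7 (0.98). Those nearest to Vdr were Hmgb3 (0.98), Mrps33 (0.97) and Map2k2 (0.96). Pth1r was followed by Cnksr2 (0.99), Cdh19 (0.98) and Tnxb (0.98), and Fgfr1, with no gene over 0.95, by Arhgef40 (0.92), Rnd3 (0.91) and Marcks (0.89). The sums share libraries and classes, and these values are a description. Kif13b, a kinesin, was at 978 CPM on average in parathyroid cells and 64.9 in fibroblast-like cells, and Tnxb, a matrix protein, at 1.45 CPM in parathyroid cells and 231 CPM in fibroblast-like cells.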

How the data were processed

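The authors deposited unnormalized UMI counts for each gene in each barcode, made with Cell Ranger 7.0.0 on mm10 per the submitters' processing notes. Barcode calling and the intron and strand settings are not given in the sources used here. Per the labels' protocols, doublets were discriminated by flow cytometry ahead of 3′ library preparation. The 7 genes, the pathway lists, the classes and the tests were chosen with earlier results of these data known.

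Left out were barcodes under 500 genes, those reaching 15% mitochondrial or 5% haemoglobin UMIs, and those predicted by Scrublet as doublets (23 and 6, 1.64% and 0.171% of barcodes). Parathyroid cells had Pth at 5% or more of UMIs and other cells under 1%; 14 and 22 cells lay between and 40 and 38 barcodes with 5% or more Pth failed a filter. Other cells were clustered with scanpy 1.11.5 (2000 variable genes, 30 principal components, 15 neighbours, Leiden resolution 1) and named from 151 markers of 24 types (marker score 0.5 or more, 3 or more markers detected). Class cell counts in replicates 1 and 2 were 36 and 51 (T cell-like), 51 and 48 (dendritic-like), 106 and 270 (endothelial-like), 231 and 448 (fibroblast-like) and 55 and 132 (macrophage-like).

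UMI counts were summed per class and library into 12 sums and tested with edgeR 4.0.16 (TMM, filterByExpr, quasi-likelihood, library as block, since each library's classes share their mice, 5 residual degrees of freedom), with p-values adjusted by Benjamini-Hochberg over all 13305 genes tested. Alternatives were DESeq2 1.42.0 and its size factors, no count filter, no library block and the named other cells as 1 class. Further alternatives were other limits on Pth, mitochondrial UMIs and doublets, other clustering resolutions, other thinning depths and each library left out. The p-values measure the spread between the pools. Fold changes are log2, parathyroid over other, and the mean of the other classes is a mean of logs. The fit was tested on simulated data for this comparison: of 100 genes changed by 1 on the log2 scale 99% were recovered, of 100 changed by 2 100%, over 12019 genes, with 2.45% false calls. Apart from these changes, the simulated classes shared the same gene means and a fixed dispersion. The changes were balanced in direction and left out genes of low level. In the real data 56.8% of genes were called, so these rates need not hold there. Intervals are exact, at 95%, limits for a count of 0 are 3 counts of the total, and both cover counting error only. Named pathway genes were up to 3 called genes of smallest p per list, the uncalled tested gene of highest CPM, and genes at 0. Rxrb, Cyp27a1, Cubn, Etv5, Spry4, Fgfr4, Rxrg, Fgf23, Pthlh and the clusters described were chosen after their values were seen. Some genes that the rule names are not reported here. The libraries held 41517620 and 88283761 UMIs.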

Additional observations from a re-analysis of the deposited data

How the results depend on the processing

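Depth limits Cyp27b1, Cyp24a1 and Pth1r in the small classes, and 2 pools limit all tests. With each library left out in turn no residual degrees of freedom remain, so only values can be given: the Kl difference from the mean of the other classes was 6.58 to 6.62, against 6.54 with both. The values of single libraries are differences of log2 CPM with a small count added, while 6.54 comes from the fit. Small gaps between them can therefore come from the method. Kl and Vdr stayed called higher under every alternative with a test, and leaving the replicate block out gave 4568 genes called higher and 2443 lower, against 4893 and 2658 with it, with no change in the calls of the 5 genes. The split of calls moved with the DESeq2 test (4147 higher and 4364 lower) and with all named other cells as 1 class (5762 and 6302). In the pathway lists, 26 and 31 genes were then called lower, against 17. The median log2 fold change of all genes was 0.06 with DESeq2-type size factors, -0.02 with DESeq2 and 0.60 with no filter on low counts.

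The contrast with the mean of the other classes was unstable for Fgfr1, Rxra and Pth1r. Against the named other cells summed to 1 class, Fgfr1 was at -2.10, Rxra at -0.81 and Pth1r at -4.23. Fgfr1 turned to 0.12 with other cells under 0.5% Pth and to 0.15 at a clustering resolution of 0.5, where no dendritic-like class remained, and reached -0.70 (adjusted p = 0.0483, edgeR) with predicted doublets kept. Pth1r turned to -0.024 with DESeq2-type size factors, -0.84 with DESeq2, -1.41 at resolution 0.5 and -0.31 with doublets kept. With each library left out Fgfr1 ranged from -0.58 to 0.41, again as differences of log2 CPM and not from the fit. The causes were not tested. Co-detection moved with depth: Kl with Fgfr1 was found in 11.2% of cells at 5000 UMIs and 53.0% without thinning, against 20.5%, and Kl with Vdr in 66.2% and 98.0%, against 89.2%.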

Other observations

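Fgf23, the ligand that Klotho and FGF receptors bind, was found in the glands. Of 87 Fgf23 UMIs in all barcodes, 83 lay in fibroblast-like cells and 2 in parathyroid cells. Fibroblast-like cells had 29 UMIs in 10 of 231 cells of replicate 1 (5.86 CPM) and 54 UMIs in 15 of 448 cells of replicate 2 (6.13 CPM), while the T cell-like, dendritic-like, endothelial-like and macrophage-like classes had 0 in both. The UMIs were concentrated, with up to 15 in 1 cell, and were spread over several fibroblast-like clusters. Pthlh, which encodes the PTH-related peptide that also binds PTH1R, had 35 UMIs, of which 30 were in fibroblast-like cells and 1 in parathyroid cells. Neither gene was tested, and both were named after their values were seen.

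A small cluster with Pth under 1% of UMIs was named parathyroid-like from its markers (6 cells of replicate 1 and 13 of replicate 2, outside the comparison). It had 78 and 53 Kl UMIs, or 1966 and 436 CPM, 5 and 24 Vdr UMIs, and 36 and 46 Casr UMIs. A single cell of replicate 1 held 31 of its 78 Kl UMIs. With the mitochondrial limit at 10%, the class of this name held only 1 and 10 cells. The median depths were 5402 and 4468 UMIs, far below those of the parathyroid cells.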
